A study of Mus musculus with 11 samples.

Results

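The transcription factor genes Gata4, Gata6, Sox17, Sox7, Foxa2 and Hnf4a and the receptor gene Pdgfra were examined in mouse embryonic stem cells with mutated DNA methyltransferases. The 7 genes were chosen by name as factors and a surface receptor of the primitive endoderm, and all 7 were found among the 25239 genes of the count table. Among the 11 samples of the series, 3 are RNA libraries at day 0, enriched for mRNA with oligo(dT) beads, with 1 for each of the genotypes labelled TKO_FL, TKO_602 and TKO. All 3 come from J1, a mouse embryonic stem cell line, and were grown on mouse embryonic fibroblast feeders stopped with mitomycin C, in medium with fetal bovine serum and LIF, the cytokine that keeps stem cells undifferentiated. The genotype TKO is spelled DNMT TKO on other samples, the series' design text writes the other names with a plus sign, and neither says what their added parts mean. DNA immunoprecipitations of TKO cells and of cells labelled Dnmt3a/3b KO make up the remaining 8 samples and were not analysed here. With 1 library for a genotype there is no replicate check, and no p-value can be given. Each interval is a 95% exact interval that covers counting error only.

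The primitive endoderm is the layer of the early embryo that separates from the pluripotent epiblast before implantation and gives rise to the visceral and parietal endoderm of the yolk sac. GATA6 starts this choice downstream of FGF signalling, against NANOG in the epiblast, and is followed by PDGFRA, SOX17, GATA4 and SOX7. Embryonic stem cell cultures in serum are known to contain a minority of cells with primitive endoderm gene expression. HNF4A and FOXA2 act later in the visceral endoderm, and both also serve in liver and gut.

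The libraries held 19573689 gene reads for TKO_FL, 43158441 for TKO_602 and 21133660 for TKO. Dnmt1, the maintenance DNA methyltransferase, had 3364 CPM (counts scaled to the library's size with TMM factors) in TKO_FL and 2444 CPM in TKO_602, against 159 CPM in TKO. Dnmt3a had 36.1 CPM in TKO_FL and 27.8 CPM in TKO_602, against 35.2 CPM in TKO, and Dnmt3b had 34.0 CPM in TKO_FL and 11.9 CPM in TKO_602, against 71.7 CPM in TKO; counts per gene do not check a deletion of part of a gene. TKO_FL and TKO share an alignment folder in the file headers, and TKO_602 has a different one. It is also the deepest library, so for TKO_602 the genotype cannot be told apart from the batch. Reads of fibroblast feeders cannot be separated from those of stem cells, and fewer cells of a type cannot be told apart from less RNA per cell.

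Summed over the 7 genes and scaled per kilobase of exon, the level was 4.22 CPM per kb in TKO_FL and 9.86 in TKO_602, against 26.8 in TKO. TKO_FL was the low library for most of the group, TKO_602 lay between, and TKO was high. Hnf4a, which was highest in TKO_602, and Sox7, which was lowest there, departed from that order. For Pdgfra and Foxa2, TKO_602 and TKO_FL were not separated by counting error.

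**Figure D1:**
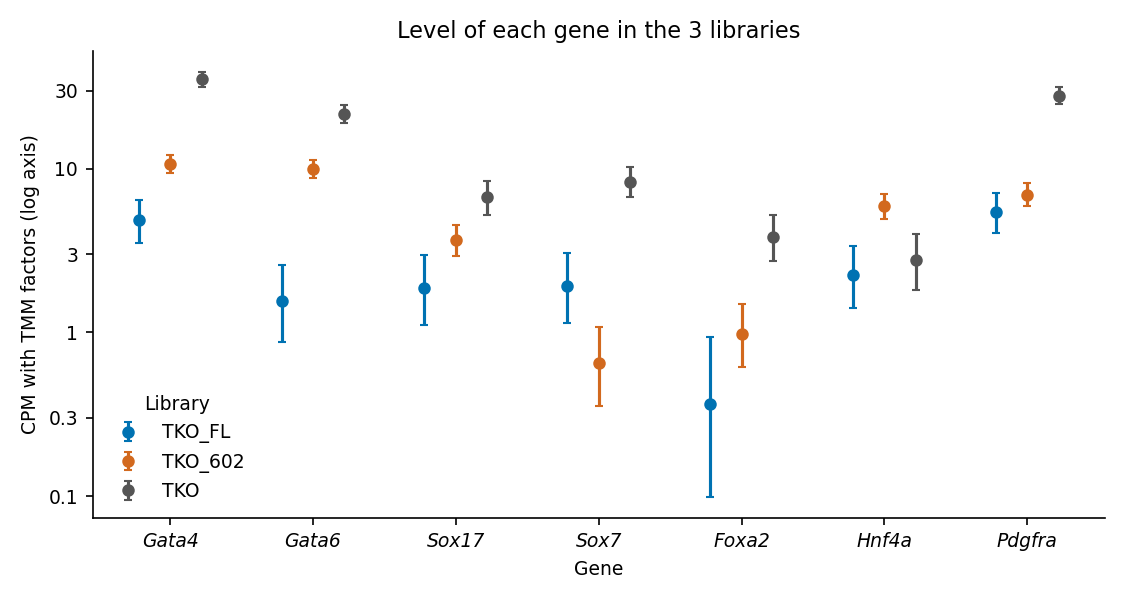
CPM with TMM factors (log axis) of each gene in the TKO_FL, TKO_602 and TKO libraries; points are single libraries and bars are 95% exact Poisson intervals of the fragments. TKO is highest for 6 of the 7 genes, Hnf4a is highest in TKO_602, and Sox7 is lowest in TKO_602 at 0.647 CPM.

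Between TKO_FL and TKO, 6 of the 7 genes were at least 2-fold lower in TKO_FL on the log2(CPM + 1) scale and 0 were at least 2-fold higher. Of all 13563 genes with at least 1 CPM in either library, 2.50% were at least 2-fold lower and 3.24% at least 2-fold higher. The median log2 fold of the 7 genes was -1.82, and that of all genes was 0.00 to 2 decimals. Foxa2, whose fold was this median, reached 1 CPM in TKO but not in TKO_FL, so the filter fixed its direction. Between TKO_602 and TKO, 5 of the 7 were at least 2-fold lower in TKO_602 and 0 higher, against 8.06% and 11.0% of 13748 genes. The median was -1.28 for the group, again the fold of Foxa2, and 0.03 for all genes. Of the genes called lower, Sox7 and Foxa2 reached 1 CPM in TKO but not in TKO_602, so the filter fixed their direction. Between TKO_602 and TKO_FL, 6 of the 7 reached 1 CPM in a library; 3 of these were higher in TKO_602 by that rule and 0 were lower, against 6.75% and 4.87% of 13683 genes, with medians of 0.85 for the group and 0.03 for all genes. The comparisons share libraries and are not independent. With a pseudocount of 5, the medians of the group were -0.95 in TKO_FL over TKO, -0.83 in TKO_602 over TKO and 0.46 in TKO_602 over TKO_FL. With that pseudocount, which damps the folds of low genes, the counts at least 2-fold lower were 3 for TKO_FL over TKO and 3 for TKO_602 over TKO, and 1 gene was at least 2-fold higher in TKO_602 over TKO_FL. The matching shares of all genes with a pseudocount of 5 were 0.58%, 3.76% and 2.51%.

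**Figure D2:**
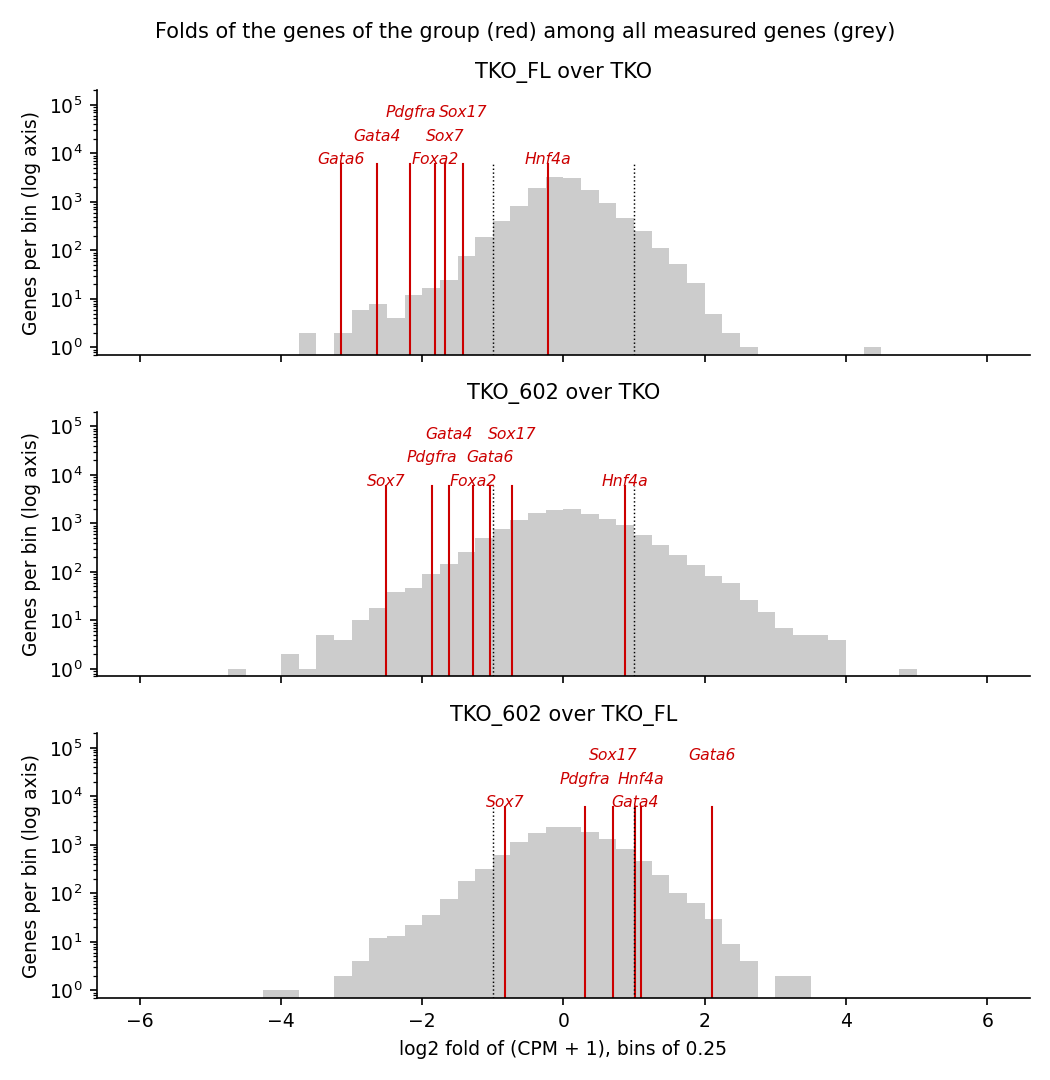
log2 fold of (CPM + 1) for the genes of the group (red lines) over the histogram of all measured genes (grey, bins of 0.25, log axis), 1 panel per comparison; dotted lines mark 2-fold. In TKO_FL over TKO, 6 genes lie left of the dotted line, in the sparse lower end where 2.50% of all genes are found, and Hnf4a lies at -0.21.

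Gata6 encodes the zinc finger factor that initiates the lineage (mm10 chromosome 18, 11052510 to 11085635, plus strand). It had 1.56 CPM in TKO_FL and 10.0 CPM in TKO_602, against 21.7 CPM in TKO, from 30, 448 and 449 reads. TKO_FL was 13.9-fold lower than TKO (interval 8.23 to 25.2), and TKO_602 was 2.17-fold lower than TKO (interval 1.79 to 2.62). The log2(CPM + 1) fold of TKO_FL over TKO was -3.15, and 2 of the 13563 genes had a lower fold. TKO_602 was 6.41-fold higher than TKO_FL (interval 3.80 to 11.6), the largest such ratio in the group. The fold of TKO_602 over TKO, -1.04, lay just past the 2-fold line and was -0.97 when CPM were scaled by library size alone. The antisense gene Gata6os overlaps Gata6 and had 0, 2 and 12 reads in TKO_FL, TKO_602 and TKO. The counting used no strand option, so reads of the antisense gene cannot be told apart from reads of Gata6 where they overlap.

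Gata4 encodes a related factor that acts after GATA6 in this layer and also in the heart (chromosome 14, 63198914 to 63245271, minus strand). It had 4.84 CPM in TKO_FL and 10.8 CPM in TKO_602, against 35.2 CPM in TKO, from 93, 482 and 730 reads. TKO_FL was 7.29-fold lower than TKO (interval 5.41 to 10.2) and TKO_602 was 3.28-fold lower than TKO (interval 2.78 to 3.87). Both libraries lay well under TKO, and TKO_602 was 2.22-fold higher than TKO_FL (interval 1.63 to 3.15). The log2(CPM + 1) fold of that last comparison, 1.01, was at the threshold, and it was 0.68 with a pseudocount of 5.

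The ratio of Gata6 to Gata4 within a library does not depend on how libraries are scaled. Per kilobase it was 0.344 in TKO_FL (interval 0.180 to 0.635) and 0.992 in TKO_602 (interval 0.823 to 1.19), against 0.656 in TKO (interval 0.552 to 0.775). Gata6 was within counting error of Gata4 in TKO_602 and under it in TKO_FL and TKO. The interval of TKO_602 overlapped neither of the others, while those of TKO_FL and TKO overlapped.

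**Figure D3:**
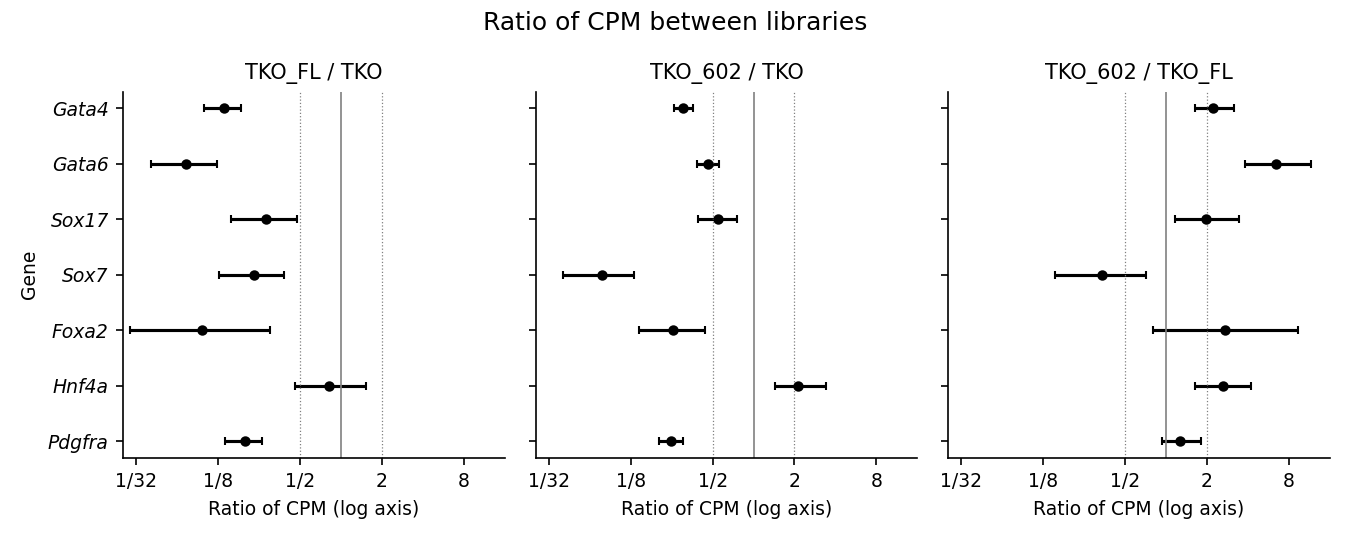
Ratio of CPM between libraries for each gene, on a log axis, with 95% exact binomial intervals; the solid line marks 1 and the dotted lines 2-fold. Hnf4a is the only gene whose TKO_FL / TKO interval includes 1, and Sox7 is the only one with a TKO_602 / TKO_FL ratio under 1.

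Sox17 and Sox7 encode closely related SOX factors of the F subgroup, which act in endoderm and in blood vessels. Sox17 (chromosome 1, 4490928 to 4497354, minus strand) had 1.87 CPM in TKO_FL and 3.66 CPM in TKO_602, against 6.71 CPM in TKO, from 36, 164 and 139 reads. TKO_FL was 3.59-fold lower than TKO (interval 2.13 to 6.44), TKO_602 was 1.83-fold lower than TKO (interval 1.32 to 2.57), and TKO_602 was 1.96-fold higher than TKO_FL (interval 1.16 to 3.46). Sox17 followed the same order of libraries as both GATA genes, with a shorter span.

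Sox7 (chromosome 14, 63943706 to 63950732, plus strand) had 1.92 CPM in TKO_FL and 0.647 CPM in TKO_602, against 8.35 CPM in TKO, from 37, 29 and 173 reads. It was 4.34-fold lower in TKO_FL than in TKO (interval 2.65 to 7.84) and 12.9-fold lower in TKO_602 than in TKO (interval 7.51 to 25.3). TKO_602 was also 2.97-fold lower than TKO_FL (interval 1.41 to 6.51). The other genes had ratios in the reverse direction, though for Pdgfra and Foxa2 the intervals included 1. On the log2(CPM + 1) scale that last fold was -0.83, within 2-fold, and it was -1.44 with a pseudocount of 0.1. Per kilobase, the ratio of Sox7 to Sox17 was 1.29 in TKO_FL (interval 0.615 to 2.55) and 0.222 in TKO_602 (interval 0.112 to 0.380), against 1.56 in TKO (interval 1.11 to 2.14). Sox7 was above Sox17 in TKO, below it in TKO_602 and not separable from it in TKO_FL.

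**Figure D4:**
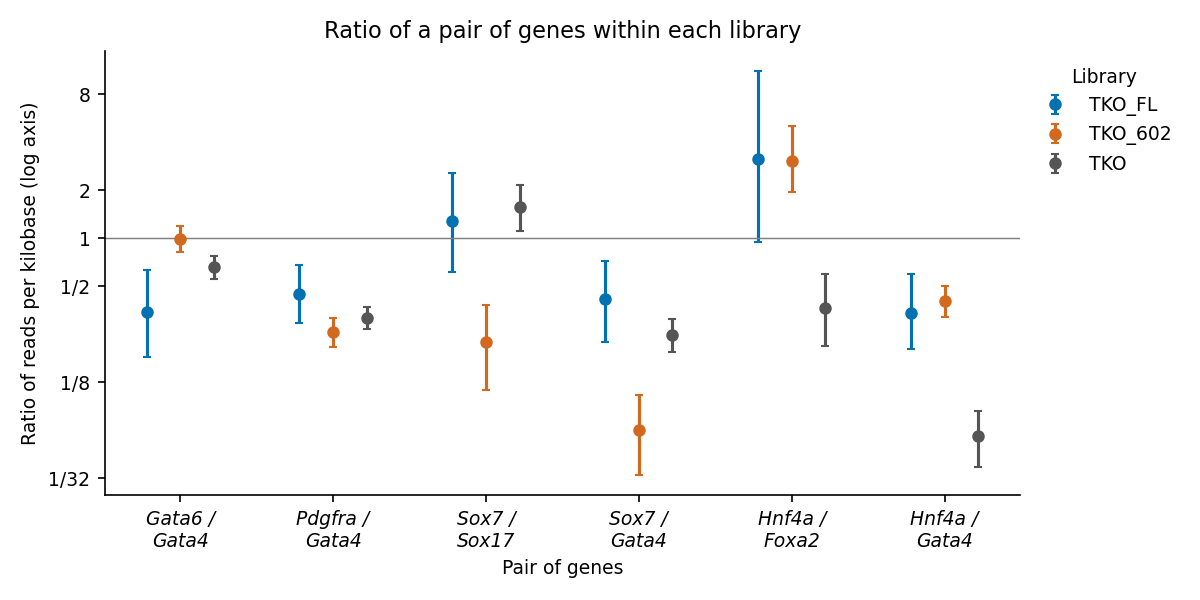
Ratio of reads per kilobase of a pair of genes within each library (log axis), with 95% exact binomial intervals; these ratios need no scaling between libraries. The TKO_602 points stand alone for Sox7 over Sox17 and for Sox7 over Gata4, and the TKO points stand alone at the low end for Hnf4a over Gata4.

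Foxa2 encodes a forkhead factor that can open closed chromatin in endoderm (chromosome 2, 148042877 to 148046969, minus strand). It was the gene with the fewest reads in TKO_FL, 7, with 44 in TKO_602 and 79 in TKO. These gave 0.364 CPM in TKO_FL and 0.982 CPM in TKO_602, against 3.81 CPM in TKO. TKO_FL was 10.5-fold lower than TKO, with a wide interval of 3.36 to 35.7, and TKO_602 was 3.88-fold lower than TKO (interval 2.28 to 6.95). TKO_602 and TKO_FL could not be separated at this depth, since the interval of their ratio ran from 0.802 to 9.42. Both lay under 1 CPM, so Foxa2 is left out of the counts for that comparison.

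Hnf4a encodes a nuclear receptor of visceral endoderm and liver (chromosome 2, 163506857 to 163572907, plus strand). It had 2.24 CPM in TKO_FL and 5.89 CPM in TKO_602, against 2.75 CPM in TKO, from 43, 264 and 57 reads. The ratio of TKO_FL to TKO was 0.812 and its interval, 0.461 to 1.53, included 1. TKO_602 was 2.14-fold higher than TKO (interval 1.44 to 3.40) and 2.63-fold higher than TKO_FL (interval 1.63 to 4.25). The log2(CPM + 1) fold of TKO_602 over TKO was 0.88, under 2-fold, and was 1.07 with a pseudocount of 0.1. Per kilobase, the ratio of Hnf4a to Gata4 was 0.338 in TKO_FL (interval 0.200 to 0.594) and 0.401 in TKO_602 (interval 0.322 to 0.498), against 0.0571 in TKO (interval 0.0368 to 0.0825). The antisense gene Hnf4aos, which overlaps it, had 0 reads in every library.

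Pdgfra encodes the platelet-derived growth factor receptor alpha, an early surface marker of the primitive endoderm that fibroblasts also carry (chromosome 5, 75152251 to 75198206, plus strand). It had 5.46 CPM in TKO_FL and 6.96 CPM in TKO_602, against 28.0 CPM in TKO, from 105, 312 and 580 reads. TKO_FL was 5.13-fold lower than TKO (interval 3.84 to 7.10) and TKO_602 was 4.02-fold lower than TKO (interval 3.30 to 4.92). TKO_602 and TKO_FL were close, with a ratio of 1.28 whose interval, 0.935 to 1.80, included 1. Pdgfra was 1 of the 3 genes, with Sox7 and Foxa2, for which TKO_602 was not clearly above TKO_FL by its interval. The fibroblast feeder list was also lower in TKO_FL: in TKO_FL over TKO, 6 of the 19 genes measured passed 2-fold downward and 0 upward, the median log2 fold was -0.68, and 19 of 19 folds lay below 0. In TKO_602 over TKO, 5 of 19 were at least 2-fold lower and 0 higher, with a median of -0.27, and 15 of 19 folds lay below 0. The shares of all genes at least 2-fold lower were 2.50% in TKO_FL over TKO and 8.06% in TKO_602 over TKO. The summed level of the 20 listed feeder genes was 466 CPM in TKO_FL and 690 CPM in TKO_602, against 834 CPM in TKO, and each of them had reads in every library. The smooth muscle actin gene Acta2 had 18.5 CPM in TKO_FL and 17.0 CPM in TKO_602, against 58.4 CPM in TKO, and S100a4, a calcium-binding protein gene of fibroblasts, had 10.8 CPM in TKO_FL and 2.63 CPM in TKO_602, against 25.5 CPM in TKO. Prrx1, a mesenchymal homeobox gene, had 9.46 CPM in TKO_FL and 7.34 CPM in TKO_602, against 21.6 CPM in TKO. Acta2, S100a4 and Prrx1 were at least 2-fold lower than TKO in both TKO_FL and TKO_602, whereas other feeder genes were not: Pdgfrb had a log2 fold of 0.84 and Col3a1 (named after its values were seen) of 0.56 in TKO_602 over TKO. The fibroblast collagen gene Col1a1 had 79.0 CPM in TKO_FL and 172 CPM in TKO_602, against 163 CPM in TKO (named after its values were seen). Its log2 fold was -1.04 in TKO_FL over TKO and 0.07 in TKO_602 over TKO. The share of Pdgfra reads that came from feeders was not tested.

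Sequences upstream of the annotated start were taken from the RefSeq table of GRCm38.p6, which is the mm10 build, for 3 of the 7 genes. They are shown because CpG dinucleotides, in capitals, are what DNA methyltransferases modify, and because Hnf4a and Pdgfra, among the 3 genes shown, had the folds farthest apart in TKO_602 over TKO. Each runs 5′ to 3′ on the gene's strand over the 250 bases before the start. In the first Hnf4a sequence, the capitals also mark a match to AGATAA.
Pdgfra, chr5:75152001-75152250, plus strand: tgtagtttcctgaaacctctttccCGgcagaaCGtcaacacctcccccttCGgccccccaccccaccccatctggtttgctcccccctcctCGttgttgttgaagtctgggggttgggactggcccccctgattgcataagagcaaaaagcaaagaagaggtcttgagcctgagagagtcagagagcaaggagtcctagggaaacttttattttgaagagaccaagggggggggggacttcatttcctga
Hnf4a, first start, chr2:163506607-163506856, plus strand: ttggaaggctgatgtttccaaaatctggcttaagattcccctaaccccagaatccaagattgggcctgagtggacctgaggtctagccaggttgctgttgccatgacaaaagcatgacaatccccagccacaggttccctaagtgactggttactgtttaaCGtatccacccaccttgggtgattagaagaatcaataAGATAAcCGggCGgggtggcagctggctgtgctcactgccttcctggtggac
Hnf4a, second start, chr2:163546905-163547154, plus strand: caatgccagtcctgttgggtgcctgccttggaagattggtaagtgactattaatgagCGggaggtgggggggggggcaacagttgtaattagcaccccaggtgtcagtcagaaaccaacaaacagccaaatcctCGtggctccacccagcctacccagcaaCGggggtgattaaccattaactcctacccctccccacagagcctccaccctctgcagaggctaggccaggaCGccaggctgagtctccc
Foxa2, outermost start, chr2:148046970-148047219, minus strand: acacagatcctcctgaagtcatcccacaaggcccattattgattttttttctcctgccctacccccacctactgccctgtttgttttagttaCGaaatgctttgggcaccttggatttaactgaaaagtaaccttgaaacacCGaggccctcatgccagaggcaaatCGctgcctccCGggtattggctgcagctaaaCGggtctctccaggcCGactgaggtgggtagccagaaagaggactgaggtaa

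The Pdgfra sequence held 4 CpGs, the Hnf4a sequences 3 and 4, and the Foxa2 sequence 6, and the median over all 32851 sequences of the same length was 6. Of the 3 Foxa2 starts in the table, the others, not printed, held 20 and 13 CpGs, and 82.1% and 68.5% of all sequences held fewer. Motifs of GATA factors (AGATAA), SOX factors (AACAAT), FOX factors (TGTTTAC) and the TATA box (TATAAA) were searched on both strands, with overlaps allowed. The AGATAA match before the first Hnf4a start began 52 bases upstream, and 9.99% of all sequences held that motif on a strand. The Pdgfra sequence, the second Hnf4a sequence and the Foxa2 sequence shown held no match to the 4 motifs, and neither did the Foxa2 sequence with 20 CpGs. The Foxa2 sequence with 13 CpGs held AGATAA 183 bases upstream and TATAAA, on the other strand, 208 bases upstream. Besides AGATAA, the motifs were found in 9.42% (AACAAT), 3.17% (TGTTTAC) and 12.4% (TATAAA) of all sequences. Counts per gene do not show which of the Hnf4a or Foxa2 starts was used. Gata4, Gata6, Sox17 and Sox7 are not shown. Sequences on the chromosome of Gata6 were left out when those of the group were taken, so Gata6 was not looked up.

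Levels of different genes were compared per kilobase of exon. In TKO_FL, Gata4 led at 1.42 CPM per kb, above Pdgfra at 0.634. Pdgfra, Sox7 (0.589), Gata6 (0.488), Hnf4a (0.480) and Sox17 (0.457) had overlapping intervals there, and Foxa2 was last at 0.154, with an interval that still overlapped that of Sox17. In TKO_602, Gata4 at 3.16 and Gata6 at 3.13 CPM per kb could not be separated and stood above Hnf4a at 1.26. Sox17 at 0.894 overlapped both Hnf4a and Pdgfra (0.809), and Foxa2 at 0.414 and Sox7 at 0.198 came last with overlapping intervals. In TKO, Gata4 at 10.3, Gata6 at 6.79 and Pdgfra at 3.25 CPM per kb were separated from one another, whereas Pdgfra and Sox7 (2.56), Sox7 and Sox17 (1.64), and Sox17 and Foxa2 (1.61) had overlapping intervals, and Hnf4a was last at 0.591. The direct ratio of Sox7 to Sox17 in TKO, given above, had an interval that excluded 1. Gata4 headed the order in every library. Hnf4a ranked 5 of 7 in TKO_FL, 3 in TKO_602 and 7 in TKO, and Sox7 ranked 3 in TKO_FL, 7 in TKO_602 and 4 in TKO. On this scale Gata4 exceeded 17.2% of the 13129 genes with at least 1 CPM in TKO_FL, 27.6% of 13148 in TKO_602 and 55.0% of 13027 in TKO.

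Genes on which these factors and this lineage are known to act were taken from lists chosen by role. For each list, the shares of all genes at least 2-fold lower and higher serve as the reference. They were 2.50% and 3.24% in TKO_FL over TKO, 8.06% and 11.0% in TKO_602 over TKO, and 4.87% and 6.75% in TKO_602 over TKO_FL. Of 16 measured primitive and visceral endoderm targets, 12 were at least 2-fold lower in TKO_FL than in TKO and 0 higher, with a median log2 fold of -1.48. Among them, Cyp26a1, Bmp2, Ihh and Apob (all but Cyp26a1 named after their values were seen) reached 1 CPM in TKO but not in TKO_FL. The filter therefore fixed their direction. In TKO_602 over TKO, 10 of 16 were lower and 1 higher, with a median of -1.65. There the filter fixed the direction of Cyp26a1 and Ihh, and of Spink1 (named after its values were seen). Dab2, Cubn and Srgn reached 1 CPM in every library. The endocytic adaptor gene Dab2 had 13.5 CPM in TKO_FL and 14.5 CPM in TKO_602, against 97.8 CPM in TKO. The visceral endoderm receptor gene Cubn had 13.4 CPM in TKO_FL and 23.8 CPM in TKO_602, against 165 CPM in TKO. Cyp26a1, whose product degrades retinoic acid, had 0.156 CPM in TKO_FL and 0.759 CPM in TKO_602, against 7.77 CPM in TKO. Srgn, the proteoglycan gene serglycin, had 3.64 CPM in TKO_FL and 11.7 CPM in TKO_602, against 55.3 CPM in TKO. These 4 targets were low in both libraries, as Pdgfra was. Rbp4, a retinol carrier gene, was the 1 target whose rise over TKO passed 2-fold in TKO_602, with 2.70 CPM in TKO_FL and 7.65 CPM in TKO_602, against 1.50 CPM in TKO (named after its values were seen). The defining markers of mature visceral endoderm were near 0: Afp had 0, 2 and 12 reads in TKO_FL, TKO_602 and TKO, Ttr had 0, 8 and 8, and Apoc2 had 0 in all.

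Of 12 parietal endoderm and basement membrane genes, 8 were at least 2-fold lower in TKO_FL than in TKO and 0 higher (median -1.39), and 4 were lower in TKO_602 than in TKO and 0 higher (median -0.79). Of the 12, 3 passed 2-fold upward and 0 downward in TKO_602 over TKO_FL (median 0.67). Pth1r, the parathyroid hormone receptor gene that marks parietal endoderm, had 1.66 CPM in TKO_FL and 13.2 CPM in TKO_602, against 20.8 CPM in TKO. The basement membrane laminin gene Lama1 had 103 CPM in TKO_FL and 149 CPM in TKO_602, against 647 CPM in TKO. Pth1r followed the order of libraries seen for Gata6, with TKO_602 nearer to TKO than to TKO_FL. Fibroblasts also make basement membrane, and the feeder list moved in the same direction in TKO_FL over TKO with a median of -0.68; the part of feeders in these genes was not tested.

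Among other factors of the same families, Foxq1, a forkhead gene, had 5.20 CPM in TKO_FL and 4.37 CPM in TKO_602, against 14.0 CPM in TKO. Foxa1, the sister gene of Foxa2, had 1.40 CPM in TKO_FL and 4.84 CPM in TKO_602, against 1.50 CPM in TKO, and so was highest in TKO_602 as Hnf4a was. Of the 7 measured genes of this list, 2 were at least 2-fold lower in TKO_FL than in TKO and 0 higher, and 2 were lower and 1 higher in TKO_602 than in TKO, with medians of -0.20 and -0.23. In the list of other GATA genes and their FOG cofactors, 5 were measured in TKO_FL over TKO and none passed 2-fold (0 lower and 0 higher, median -0.21). Zfpm1, the FOG1 cofactor gene, had 17.1 CPM in TKO_FL and 31.1 CPM in TKO_602, against 13.8 CPM in TKO, and was the 1 of 4 measured at least 2-fold higher in TKO_602 (0 lower, median -0.34). Gata2, a GATA gene of blood precursors, had 1.66 CPM in TKO_FL and 2.81 CPM in TKO_602, against 3.33 CPM in TKO. Gata5 had 0, 3 and 0 reads in TKO_FL, TKO_602 and TKO.

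PDGF ligands bind PDGFRA and its sister receptor PDGFRB. Of the 5 ligand and sister receptor genes, 0 were at least 2-fold lower or higher in TKO_FL than in TKO (median 0.04), and 0 of the 4 measured passed 2-fold in TKO_602 over TKO (median 0.39). Pdgfc had 22.5 CPM in TKO_FL and 21.1 CPM in TKO_602, against 31.8 CPM in TKO, and Pdgfb had 7.49 CPM in TKO_FL and 10.2 CPM in TKO_602, against 7.24 CPM in TKO. The sister receptor gene Pdgfrb, itself a fibroblast marker, had 6.60 CPM in TKO_FL and 15.1 CPM in TKO_602, against 8.01 CPM in TKO. In TKO_602 over TKO_FL it was the 1 gene of the 5 at least 2-fold higher.

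FGF signalling is the known input to Gata6. Of 14 measured FGF and ERK genes, 0 were at least 2-fold lower and 1 was higher in TKO_FL than in TKO (median -0.02), and 2 were lower and 1 higher in TKO_602 than in TKO (median -0.40). The shares of all genes lower and higher were 2.50% and 3.24% in TKO_FL over TKO, and 8.06% and 11.0% in TKO_602 over TKO. Fgfr2, the receptor gene that primitive endoderm precursors carry, had 37.0 CPM in TKO_FL and 5.76 CPM in TKO_602, against 13.8 CPM in TKO. It was the 1 gene higher in TKO_FL, in the library where Gata6 was lowest. Fgfr4 had 4.32 CPM in TKO_FL and 13.3 CPM in TKO_602, against 4.78 CPM in TKO, and the feedback inhibitor gene Spry4 had 242 CPM in TKO_FL and 73.5 CPM in TKO_602, against 144 CPM in TKO. Fgf5, a ligand gene of the later epiblast, had 2.55 CPM in TKO_FL and 0.179 CPM in TKO_602, against 1.83 CPM in TKO.

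Of 10 epiblast factors, 0 were at least 2-fold apart in TKO_FL over TKO (median 0.32). Prdm14 had the lowest level of them, in CPM and per kilobase, with 16.9 CPM in TKO_FL and 29.7 CPM in TKO_602, against 17.1 CPM in TKO. In TKO_602 over TKO, 0 were lower and 2 higher (median 0.32): Klf4, with 169 CPM in TKO_FL and 356 CPM in TKO_602 against 155 CPM in TKO, and Tfcp2l1, with 280 CPM in TKO_FL and 361 CPM in TKO_602 against 156 CPM in TKO. The share of all genes at least 2-fold higher in TKO_602 over TKO was 11.0%. Nanog, whose protein opposes GATA6 in the embryo, had 683 CPM in TKO_FL and 518 CPM in TKO_602, against 439 CPM in TKO (named after its values were seen). Its level was lowest in TKO, and its log2 folds of 0.64 and 0.24 over TKO were under 2-fold. In each comparison over TKO, 2 of the 10 folds lay below 0. Zfp42 had 1200 CPM in TKO_FL and 589 CPM in TKO_602, against 892 CPM in TKO. Pou5f1 (named after its values were seen) had 1290 CPM in TKO_FL and 1169 CPM in TKO_602, against 1386 CPM in TKO. A relation between Nanog and Gata6 was not tested.

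**Figure D5:**
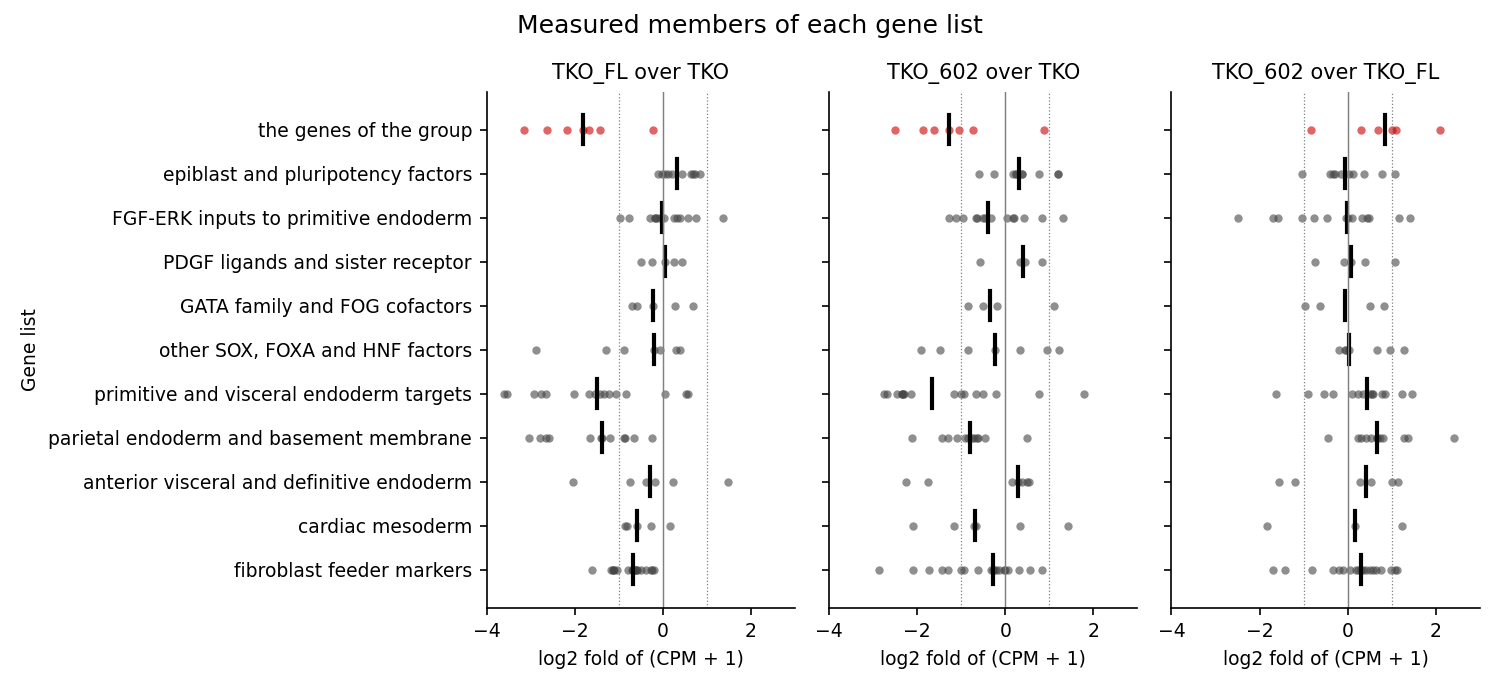
log2 fold of (CPM + 1) of the measured members of each gene list, 1 point per gene, with a black bar at the median; the genes of the group are in red and dotted lines mark 2-fold. In TKO_FL over TKO the medians of the group (-1.82), of the primitive and visceral endoderm targets (-1.48) and of the basement membrane genes (-1.39) lie left of the line at -1, and those of the other lists do not; with a pseudocount of 5 the median of the group is -0.95.

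The genes with the pattern nearest to Gata6 were sought among 10971 genes with a name other than a predicted-gene identifier, of at least 200 bases of exon with at least 5 CPM in a library. Likeness was the distance in log2 units between the folds of a gene and those of Gata6 in TKO_FL over TKO and TKO_602 over TKO, so that it rests on 3 libraries and on folds that share TKO. The nearest were Pth1r (distance 0.44), the basement membrane collagen gene Col4a1 (0.52), Klb, a coreceptor gene for endocrine FGFs (0.53), Col4a2 (0.62) and the prostaglandin transporter gene Slco2a1 (0.75). Col4a1 had 86.7 CPM in TKO_FL and 224 CPM in TKO_602, against 609 CPM in TKO. Klb had 0.104 CPM in TKO_FL, so its fold over TKO is damped by the pseudocount of 1. Nearest to Pdgfra were the nuclear export gene Nxf7 (distance 0.17), the p53 target Dram1 (0.22), Srp54b (0.23), the angiomotin gene Amot (0.29) and Bcl6b (0.31). Dram1 and Srp54b had 0.728 and 0.936 CPM in TKO_FL, so their folds are damped in the same way. Amot had 11.0 CPM in TKO_FL and 11.9 CPM in TKO_602, against 43.5 CPM in TKO. Its like level in TKO_FL and TKO_602 follows from the choice of genes by their nearness to the folds of Pdgfra.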

How the data were processed

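Per the submitters' processing notes, the RNA libraries went through Trim Galore, HISAT2, SAMtools, Subread and featureCounts on mm10. The deposited gene counts were made by the authors, per the file headers, with featureCounts 2.0.6 in paired mode on the mm10 refGene annotation. No option for strand, for multimapping reads or for counting read pairs was set, so that each mate counts as a read. The authors also deposited a signal table named TPM for TKO_FL and TKO. Its columns sum to 10000000, so its values were divided by 10. In each table, 11 further library columns carry names that fit no sample analysed here and were left aside.

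Counts were scaled to CPM with TMM factors from edgeR 4.0.16 in R 4.3.3 (0.983 for TKO_FL, 1.04 for TKO_602 and 0.980 for TKO). Log2 folds used a pseudocount of 1 CPM over genes with at least 1 CPM in either library, with a threshold of 2-fold, in Python 3.11.15. A listed gene under 1 CPM in 1 of the 2 libraries enters only through the other, so the filter fixes its direction. Exact intervals (scipy 1.17.1) used reads divided by 2, since 2 mates come from 1 fragment. They cover counting error only and leave in PCR duplicates. No test was run, as each genotype is 1 library. The fold step was tested on simulated counts with known changes. Alternatives covered the pseudocount, the filter, library size alone, size factors from DESeq2 1.42.0, short genes and the deposited TPM signal.

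The genes and lists were chosen with earlier results of these data known. The text names all 7 genes, at most 4 genes of each list from those with its largest absolute folds, defining markers at 0, and the 5 genes nearest in pattern to Gata6 and to Pdgfra. Other genes are named as chosen after their values were seen. Some genes of the lists are counted but not reported by name here.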

Additional observations from a re-analysis of the deposited data

How the results depend on the processing

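Every comparison rests on 1 library per genotype, so no library could be left out, and folds between libraries include any difference between cultures. No paired analysis was possible because each genotype has 1 library and its number pairs nothing. Of 142 folds of single genes of the group under other settings, 0 changed sign and 10 crossed the 2-fold line, 9 of them with another pseudocount. With a pseudocount of 5, the genes of the group at least 2-fold lower were 3 in TKO_FL over TKO and 3 in TKO_602 over TKO, and 1 was higher in TKO_602 over TKO_FL. With a pseudocount of 0.1, 1 gene was higher in TKO_602 over TKO (Hnf4a) and 1 lower in TKO_602 over TKO_FL (Sox7). The median log2 fold of the group ran from -2.34 to -0.95 in TKO_FL over TKO, from -1.70 to -0.83 in TKO_602 over TKO and from 0.46 to 1.05 in TKO_602 over TKO_FL. A pseudocount shrinks the folds of low genes by its construction. Over all genes, those lower and higher were 339 and 440 in TKO_FL over TKO, against 658 and 816 with a pseudocount of 0.1 and 78 and 97 with 5. They were 1108 and 1506 in TKO_602 over TKO, against 517 and 695 with 5, and 667 and 924 in TKO_602 over TKO_FL, against 274 and 344 with 5 and 1023 lower with 0.1. The deposited TPM gave 6 of 7 genes lower in TKO_FL over TKO, against 3.06% of all genes measured by it. Levels per kilobase stayed within their counting intervals under all 3 other scalings. Depth limited Foxa2 most, with 7 reads in TKO_FL.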

Other observations

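Gata4 and Sox7 lie on chromosome 14, 698 kb apart, with 7 annotated genes between them. Of these, 5 had a fold in TKO_FL over TKO and all 5 stayed within 2-fold on the log2(CPM + 1) scale, among them Tdh, the threonine dehydrogenase gene of stem cells, with 668 CPM in TKO_FL and 194 CPM in TKO_602, against 567 CPM in TKO. Xkr6 had 1.40 CPM in TKO_FL and 0.156 CPM in TKO_602, against 0.290 CPM in TKO, from 27, 7 and 6 reads, and its log2 fold of 0.90 in TKO_FL over TKO is damped by the pseudocount of 1. In TKO_602 over TKO, Tdh was at a log2 fold of -1.54 and Pinx1 at -1.20, whereas Fam167a was at -0.32 and Mtmr9 at -0.52. Neil2, a DNA glycosylase gene of base excision repair that lies 5389 bases from Gata4, was higher in TKO_FL and TKO_602 than in TKO, where Gata4 was lower in both. It had 7.28 CPM in TKO_FL and 14.1 CPM in TKO_602, against 1.50 CPM in TKO, from 140, 632 and 31 reads, with log2 folds of 1.73 and 2.60 over TKO. All genes between Gata4 and Sox7 and within 10 kb of a gene of the group were looked up. Those named here were picked after their values were seen.

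Other tissues share these factors. Of 11 cardiac mesoderm genes, where Gata4, Gata6 and Pdgfra also act, 5 reached 1 CPM in TKO_FL or TKO, with 0 at least 2-fold apart (median -0.60), and in TKO_602 over TKO 2 of 6 were lower and 1 higher (median -0.68). Tbx20, Hand1 and Mef2c (the last named after its values were seen) reached 1 CPM only in TKO. In TKO_602 over TKO, Kdr also did so only in TKO, and Nkx2-5 only in TKO_602. The filter fixed the direction of such folds, so these counts and medians do not show a direction for the list. The summed level of the 11 was 12.4 CPM in TKO_FL and 11.0 CPM in TKO_602, against 17.1 CPM in TKO. The cardiac homeobox gene Nkx2-5 had 0.468 CPM in TKO_FL and 2.48 CPM in TKO_602, against 0.290 CPM in TKO, and Kdr, a receptor gene of mesoderm and vessels, had 6.03 CPM in TKO_FL and 0.982 CPM in TKO_602, against 7.48 CPM in TKO. Among 10 genes of anterior visceral and definitive endoderm, where Foxa2 and Sox17 act, the Wnt inhibitor gene Dkk1 had 0.520 CPM in TKO_FL and 0.312 CPM in TKO_602, against 5.26 CPM in TKO. Otx2, a head organizer gene that the epiblast also uses, had 43.9 CPM in TKO_FL and 14.2 CPM in TKO_602, against 50.1 CPM in TKO. Lefty1, a Nodal inhibitor gene that stem cells also express, had 380 CPM in TKO_FL and 165 CPM in TKO_602, against 135 CPM in TKO. Of the measured genes of this list, 1 of 6 was at least 2-fold lower and 1 higher in TKO_FL over TKO. In TKO_602 over TKO, 2 of 7 were lower and 0 higher. Dkk1, counted as lower in both, reached 1 CPM only in TKO, so the filter fixed its direction. Beside the counts of both lists, the shares of all genes at least 2-fold lower and higher were 2.50% and 3.24% in TKO_FL over TKO. They were 8.06% and 11.0% in TKO_602 over TKO.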
